A study of Mus musculus with 6 samples.

Results

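Gut epithelial genes were examined in RNA-Seq of B cells sorted from Peyer's patches, organized lymphoid tissue in the wall of the small bowel. The set comprised 31 genes that mark the epithelial lining of the gut, given by symbol, out of 39179 gene identifiers in the deposited table. The identifiers of all 31 were found there. GC B cells and naive B cells, called resting in the study's methods, were measured in 3 pools each from the ileal Peyer's patches of WT female C57BL/6 mice aged 12 wk. The methods describe GC B cells as Fas+GL7+ and resting B cells as Fas-GL7- among cells stained for a B cell surface protein, and name no epithelial surface protein in the gate. Each replicate was a pool of mice, and whether a GC pool and a naive pool of 1 number shared mice is not given in the sources used here. Levels are given in TPM, the transcripts of a gene per 1000000 transcripts of a pool, which allows genes of different length to be compared. The 3 values of a population measure the spread between pools.

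The intestinal epithelium is a sheet of cells held together by cadherins, claudins and Epcam, and braced from within by keratin filaments. Absorptive enterocytes carry a brush border and take up lipids, goblet cells secrete mucus, Paneth cells release antimicrobial proteins, and Pigr carries IgA made by plasma cells into the gut lumen. The epithelial sheet continues over the B cell follicles of Peyer's patches, so pieces of this tissue can contain epithelial cells and B cells. The question was whether the gut genes moved together across the 6 pools, as RNA carried over from a common source would, and which genes deviated.

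The labelled populations carried their defining genes. Pax5, the B cell identity factor, lay between 175 and 191 TPM in GC pools and between 204 and 257 TPM in naive pools. Fas, on which GC B cells were sorted, lay between 108 and 119 TPM in GC pools and between 3.03 and 3.59 TPM in naive pools. Depth, estimated from the steps between low values, was about 9950000 to 10950000 reads in GC pools and 9750000 to 16150000 reads in naive pools. Markers of the other cell types were low with few exceptions. Cd3e of T cells did not exceed 0.799 TPM and Csf1r of macrophages did not exceed 0.279 TPM, and 3 of 7 myeloid markers (Fcgr1, S100a8 and S100a9) were listed at 0 in every pool.

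The gut genes together made up a small and uneven fraction of each library. Their summed level was 145 TPM in GC replicate 1, 355 TPM in GC replicate 2 and 177 TPM in GC replicate 3. In naive replicates 1, 2 and 3 it was 523, 359 and 363 TPM. The mean was 226 ± 113 TPM in GC pools and 415 ± 93.6 TPM in naive pools (SD, n = 3), a naive over GC ratio of 1.84. The lowest naive sum, 359 TPM, exceeded the highest GC sum, that of GC replicate 2, by little, and the other GC pools lay far below both. Without GC replicate 2 the ratio was 2.58, and without GC replicate 2 and naive replicate 1 it was 2.24. In these bulk samples, fewer cells of a type and less RNA per cell cannot be told apart.

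**Figure D1:**
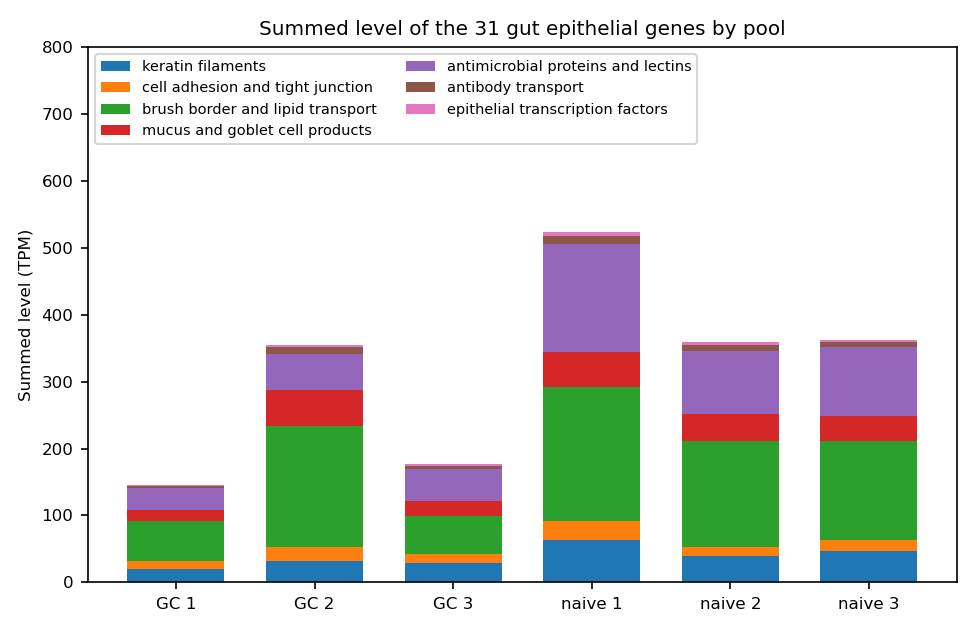
Summed level in TPM (vertical axis, from 0) of the 31 gut epithelial genes in each of the 6 pools, stacked by role. The sum lies between 145 and 355 TPM in GC pools and between 359 and 523 TPM in naive pools, and brush border and lipid transport genes form the tallest block in every pool.

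Of the 31 genes, 26 reached at least 1 TPM in at least 3 of the 6 pools and entered the limma fit across 12785 genes. Relative to naive B cells, 10 of these 26 were lower in GC B cells and 1 was higher at an adjusted p under 0.05, while 15 did not pass the test. That is 38.5% lower and 3.85% higher, beside 30.1% of all genes tested that were lower in GC B cells and 35.5% that were higher. The share of lower genes is not far above that of all genes tested. Of the 10 lower genes, 3 (Lyz1, Cdx2 and Elf3) were under 1 TPM in all GC pools and reached the filter through their naive pools alone. The direction and the lack of overlap of these 3 were thus fixed by the filter, and the other 7 did not depend on it in this way. The median log2 fold change, GC minus naive, was -0.73 over the 26 genes and 0.03 over all genes tested. All 3 naive pools lay above all 3 GC pools for 9 of the 26 genes (34.6%, against 32.8% of all genes tested), and all GC pools lay above all naive pools for 2 (7.69%, against 37.8%).

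The number of calls depended on single pools. Without GC replicate 2, 18 members were lower in GC B cells and 1 was higher. Without GC replicate 1 the counts were 4 and 1, without GC replicate 3 they were 7 and 0, and without naive replicate 1 they were 5 and 2. Without both GC replicate 2 and naive replicate 1, 15 members were lower and 0 were higher. Krt8, Lgals2 and Lgals4 were lower in GC B cells in each of the 6 fits that left out 1 pool and in the fit that left out both, and so was Lyz1, which reached the filter through its naive pools alone. The other 6 that were lower with all pools (Krt20, Epcam, Vil1, Fabp2, Cdx2 and Elf3) each lost the call in at least 1 of these fits.

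**Figure D2:**
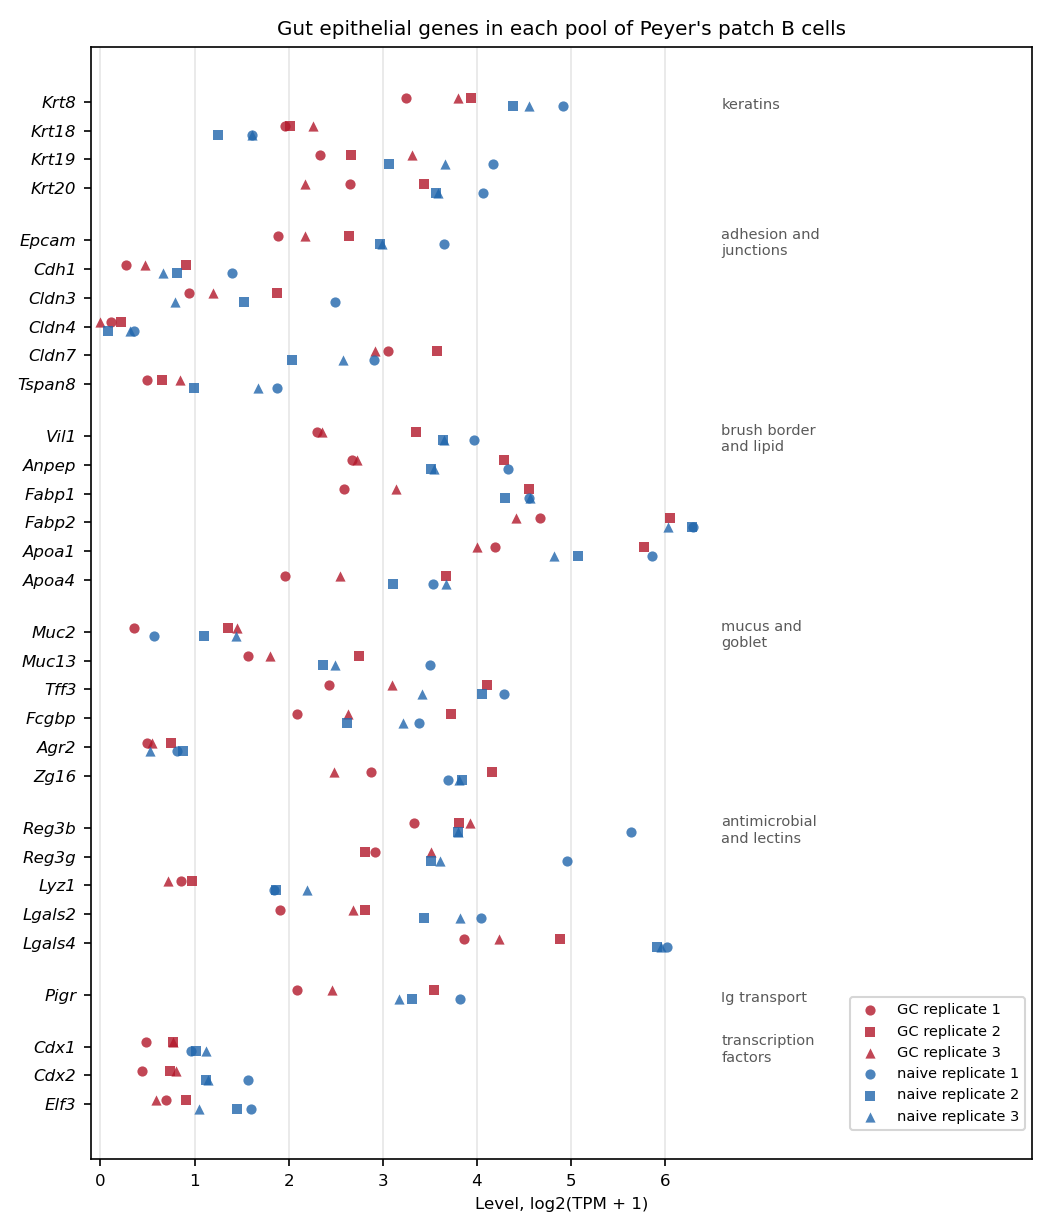
Level of each of the 31 gut epithelial genes in each pool, as log2(TPM + 1) on the horizontal axis, with GC pools in red, naive pools in blue and the marker shape giving the replicate number. Most blue points lie to the right of red ones, GC replicate 2 (red squares) lies near the blue points for the brush border genes, and Krt18 and Cldn7 have red points to the right of blue ones.

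Keratins, the filaments that brace epithelial cells, split in direction. Krt8, a type II keratin of simple epithelia, was at 8.47, 14.3 and 13.0 TPM in GC replicates 1 to 3 and at 29.2, 19.9 and 22.6 TPM in naive replicates 1 to 3. The populations did not overlap, and Krt8 was lower in GC B cells (log2 fold change -0.96, SE 0.22, limma adjusted p = 0.00804). Krt18 encodes the type I keratin that pairs with Krt8 in the same filament. Its levels were 2.88, 3.05 and 3.78 TPM in GC pools and 2.05, 1.38 and 2.05 TPM in naive pools, again without overlap but with the GC pools on top (log2 fold change 0.59, SE 0.16, limma adjusted p = 0.0166). Those levels correspond to about 18.9 to 32.9 reads per pool. Krt18 passed the test in each fit that left out 1 pool except the one without GC replicate 3, and did not pass without GC replicate 2 and naive replicate 1. The ratio of Krt8 to Krt18 was 2.94, 4.69 and 3.43 in GC pools and 14.2, 14.4 and 11.0 in naive pools, so that the proportion between the partners differed between the populations and was close to constant within naive pools.

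Krt19 and Krt20, type I keratins of the gut lining, followed Krt8 in sign. Krt20, found in differentiated cells at the top of the epithelium, was at 5.31, 9.83 and 3.51 TPM in GC pools and at 15.7, 10.9 and 11.0 TPM in naive pools (log2 fold change -0.98, SE 0.33, limma adjusted p = 0.0364), a call that was lost with no filter and kept without GC replicate 2 alone among the fits that left out 1 pool. Krt19 was at 4.05, 5.32 and 8.95 TPM in GC pools and at 17.0, 7.36 and 11.7 TPM in naive pools. GC replicate 3 lay inside the naive range for Krt19, and the gene did not pass the test (log2 fold change -0.86, SE 0.35, limma adjusted p = 0.0691).

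Krt8 and Krt18 lie next to each other on chromosome 15 with 23874 bases between their annotated starts, on opposite strands. The 250 bases before each start are shown because these partners of 1 filament moved in opposite directions. The sequences are RefSeq's on GRCm38.p6, 5′ to 3′ on the strand of the gene, with AGATAA, the core of GATA factor sites, in capitals. Krt8 lies on the minus strand at chr15:102004343-102004592 and Krt18 on the plus strand at chr15:102027966-102028215.
Krt8: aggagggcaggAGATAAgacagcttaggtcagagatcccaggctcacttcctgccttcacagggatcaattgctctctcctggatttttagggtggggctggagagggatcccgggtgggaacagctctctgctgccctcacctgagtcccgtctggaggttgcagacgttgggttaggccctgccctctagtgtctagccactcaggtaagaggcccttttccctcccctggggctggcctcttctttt
Krt18: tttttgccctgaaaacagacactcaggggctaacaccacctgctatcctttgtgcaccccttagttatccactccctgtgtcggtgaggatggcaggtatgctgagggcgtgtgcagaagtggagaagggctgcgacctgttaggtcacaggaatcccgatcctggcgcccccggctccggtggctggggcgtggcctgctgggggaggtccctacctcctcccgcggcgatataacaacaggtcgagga
Krt8 held 1 AGATAA, which starts 239 bases before the annotated start, and Krt18 held none.

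The following 3 letter strings were counted on both strands in the 250 bases before each start. They were TATAAA, the TATA box, AGATAA, and CAAAGTCC, a core of HNF4 sites. Overlapping matches of different strings were counted for each. Among 32851 mouse promoters of this length, 12.4% held TATAAA, 9.99% held AGATAA and 1.2% held CAAAGTCC. Promoters were matched by symbol for 26 of the 31 genes, and Krt19, Cdh1, Tff3, Zg16 and Cdx1 had none in the table. TATAAA was found for 5 genes (Fabp1, Krt20, Muc2, Reg3b and Reg3g), AGATAA for 4 (Krt20, Krt8, Lgals2 and Muc2) and CAAAGTCC for 2 (Lgals2 and Muc13). A match describes the letters and is not evidence of a bound site.

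Adhesion and junction genes did not share a direction. Epcam, the adhesion molecule of epithelial cells, was at 2.70, 5.25 and 3.53 TPM in GC pools and at 11.6, 6.84 and 6.96 TPM in naive pools. Every naive pool lay above every GC pool, and Epcam was lower in GC B cells (log2 fold change -0.97, SE 0.26, limma adjusted p = 0.0169). Cldn7, a claudin of the lateral membrane and tight junction, ran the other way, with 7.33, 11.0 and 6.58 TPM in GC pools and 6.51, 3.11 and 4.96 TPM in naive pools. The lowest GC pool and the highest naive pool were almost equal, and the difference did not pass the test (log2 fold change 0.68, SE 0.27, limma adjusted p = 0.065), whereas it did without naive replicate 1. The ratio of Epcam to Cldn7 was 0.368, 0.479 and 0.536 in GC pools and 1.78, 2.20 and 1.40 in naive pools.

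None of the other claudins and adhesion genes was called. Cldn3, a barrier-forming claudin, was at 0.923, 2.66 and 1.28 TPM in GC pools and at 4.63, 1.88 and 0.736 TPM in naive pools, with overlap in both directions (log2 fold change -0.27, SE 0.46, limma adjusted p = 0.636). Its estimate changed sign, to 0.18, when naive replicate 1 was left out. Cdh1, the E-cadherin of epithelial junctions, lay between 0.207 and 0.872 TPM in GC pools and between 0.581 and 1.63 TPM in naive pools and did not reach the filter. Tspan8, a tetraspanin of gut epithelium, did not reach it either, with 0.413 to 0.794 TPM in GC pools and 0.985 to 2.66 TPM in naive pools. Cldn4 lay at or below 0.283 TPM in every pool and was listed at 0 in GC replicate 3.

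Brush border and lipid transport genes supplied the highest levels, and in GC B cells the level was set mostly by which pool was measured. Fabp2, the intestinal fatty acid binding protein, was at 24.6, 65.4 and 20.4 TPM in GC pools and at 77.6, 76.9 and 64.5 TPM in naive pools. GC replicate 2 reached the naive range while the other GC pools did not, and Fabp2 passed the test (log2 fold change -1.15, SE 0.41, limma adjusted p = 0.0452). The call was lost with a pseudocount of 0.01 (limma adjusted p = 0.0502), with either other filter (0.0817 and 0.0508) and in 5 of the 6 fits that left out 1 pool (0.0838 to 0.127). Vil1, the actin bundler of microvilli, was at 3.91, 9.19 and 4.13 TPM in GC pools and at 14.7, 11.5 and 11.5 TPM in naive pools. Vil1 was lower in GC B cells with no overlap (log2 fold change -1.08, SE 0.30, limma adjusted p = 0.0168).

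The remaining genes of this role had the same shape but did not pass the test. Fabp1, the fatty acid binding protein shared with liver, was at 5.03, 22.4 and 7.83 TPM in GC pools and at 22.5, 18.7 and 22.6 TPM in naive pools (log2 fold change -1.04, SE 0.47, limma adjusted p = 0.0947). Apoa1, the main apolipoprotein of high density lipoprotein, was at 17.3, 53.8 and 15.0 TPM in GC pools and at 57.0, 32.8 and 27.1 TPM in naive pools (log2 fold change -0.59, SE 0.51, limma adjusted p = 0.347). For both genes GC replicate 2 lay within the naive range and the other GC pools lay below it. Apoa4, an apolipoprotein made during fat absorption, was at 2.91, 11.8 and 4.85 TPM in GC pools and at 10.5, 7.65 and 11.7 TPM in naive pools (limma adjusted p = 0.19). Anpep, an aminopeptidase of the brush border, was at 5.37, 18.5 and 5.63 TPM in GC pools and at 19.1, 10.4 and 10.7 TPM in naive pools (limma adjusted p = 0.334). Without GC replicate 2, Fabp1, Apoa1, Apoa4 and Anpep all passed the test as lower in GC B cells.

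None of the 5 tested genes of mucus and goblet cells passed the test, and 4 of them had lower estimates in GC B cells. Tff3, the trefoil peptide of goblet cells, was at 4.4, 16.2 and 7.55 TPM in GC pools and at 18.5, 15.6 and 9.67 TPM in naive pools (log2 fold change -0.71, SE 0.44, limma adjusted p = 0.206). Zg16, a lectin-like protein of mucus granules, was at 6.31, 16.8 and 4.59 TPM in GC pools and at 12.0, 13.3 and 13.0 TPM in naive pools (limma adjusted p = 0.235). GC replicate 2 was above all naive pools for Zg16 and for Fcgbp. Fcgbp, an IgG Fc binding protein of mucus, was at 3.27, 12.2 and 5.20 TPM in GC pools and at 9.46, 5.15 and 8.30 TPM in naive pools (limma adjusted p = 0.628). Its level is less certain, since 15.7% of the 31-base windows of its longest transcript also occur in a transcript of another gene, with 9530053A07Rik sharing most. Muc13, a membrane mucin, was at 1.96, 5.72 and 2.48 TPM in GC pools and at 10.4, 4.16 and 4.63 TPM in naive pools (limma adjusted p = 0.158). Without GC replicate 2, Tff3, Zg16 and Muc13 passed the test as lower in GC B cells and Fcgbp did not.

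Muc2, the gel-forming mucin that goblet cells secrete, matched neither pattern. It was at 0.276, 1.56 and 1.73 TPM in GC pools and at 0.486, 1.14 and 1.70 TPM in naive pools (log2 fold change 0.02, SE 0.36, limma adjusted p = 0.969), an estimate whose sign changed with the pseudocount and the scaling. Replicate 1 was the lowest pool of both populations, although naive replicate 1 had the highest sum of all 31 genes. The ratio of Tff3 to Muc2, both goblet cell products, ran from 4.37 in GC replicate 3 to 38.1 in naive replicate 1. Agr2, a disulfide isomerase needed for mucin folding, lay between 0.413 and 0.835 TPM in all pools and did not reach the filter.

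Antimicrobial proteins and lectins held the members that differed most. Lgals4, a galectin of the gut epithelium, was at 13.5, 28.5 and 17.9 TPM in GC pools and at 63.8, 59.2 and 61.3 TPM in naive pools. The naive pools lay close together and far above all GC pools (log2 fold change -1.64, SE 0.24, limma adjusted p = 0.00117). Lgals2, a related galectin, was at 2.74, 6.02 and 5.44 TPM in GC pools and at 15.5, 9.85 and 13.2 TPM in naive pools, also without overlap (log2 fold change -1.30, SE 0.28, limma adjusted p = 0.00606). The mean of Lgals4 was 3.08 times higher in naive than in GC pools and that of Lgals2 was 2.71 times higher.

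Lyz1, the lysozyme of Paneth cells, was at 0.813, 0.969 and 0.641 TPM in GC pools and at 2.59, 2.66 and 3.59 TPM in naive pools (log2 fold change -1.12, SE 0.16, limma adjusted p = 0.000858). These levels are uncertain, since they correspond to about 4.97 to 34.0 reads per pool and 34.2% of the 31-base windows of the longest Lyz1 transcript also occur in a transcript of another gene, mostly in Lyz2. Lyz2, the lysozyme of macrophages and other myeloid cells, was at 1.38, 1.94 and 0.516 TPM in GC pools and at 5.28, 2.48 and 2.13 TPM in naive pools (log2 fold change -0.90, SE 0.35, limma adjusted p = 0.0618). The summed level of the 7 myeloid markers ran from 0.836 to 2.17 TPM in GC pools and from 3.33 to 6.41 TPM in naive pools, with Lyz2 as the largest part and Csf1r near 0. The part of myeloid RNA in the Lyz1 difference was not tested.

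Reg3b and Reg3g, C-type lectins that kill or hold back gut bacteria, were set apart by naive replicate 1. Reg3b was at 9.08, 13.0 and 14.2 TPM in GC pools and at 48.9, 12.9 and 13.0 TPM in naive pools (log2 fold change -0.73, SE 0.51, limma adjusted p = 0.255). Reg3g was at 6.56, 6.03 and 10.4 TPM in GC pools and at 30.0, 10.4 and 11.2 TPM in naive pools (log2 fold change -0.94, SE 0.42, limma adjusted p = 0.0883). For both genes, naive replicates 2 and 3 lay within or just above the GC range and naive replicate 1 was far above it. Naive replicate 1 exceeded the mean of the other naive pools 3.77 times for Reg3b and 2.78 times for Reg3g. GC replicate 2, which was high for enterocyte genes, was 1.12 times the mean of the other GC pools for Reg3b and 0.714 times for Reg3g.

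The 250 bases before the starts of Reg3b and Reg3g are shown because both genes were far higher in naive replicate 1 than in any other pool. Krt19 and Cdx2 were likewise highest in GC replicate 3 among GC pools and in naive replicate 1 among naive pools. Reg3b and Reg3g both lie on chromosome 6. Reg3b is on the plus strand at chr6:78370635-78370884 and Reg3g on the minus strand at chr6:78468875-78469124 (RefSeq, GRCm38.p6, 5′ to 3′ on the strand of the gene). Capitals mark TATAAA on either strand.
Reg3b: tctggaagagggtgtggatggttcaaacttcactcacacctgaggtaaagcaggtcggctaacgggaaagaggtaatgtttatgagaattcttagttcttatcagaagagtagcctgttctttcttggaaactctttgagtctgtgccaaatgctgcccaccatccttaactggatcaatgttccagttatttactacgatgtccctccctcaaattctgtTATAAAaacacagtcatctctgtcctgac
Reg3g: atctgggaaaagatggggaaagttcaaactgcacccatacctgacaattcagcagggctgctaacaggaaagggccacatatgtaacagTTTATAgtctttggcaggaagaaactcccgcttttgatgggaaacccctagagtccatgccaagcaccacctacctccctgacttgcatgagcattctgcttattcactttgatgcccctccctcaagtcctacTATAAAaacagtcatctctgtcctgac
TATAAA starts 29 bases before the annotated start in Reg3b and 27 bases before it in Reg3g, which holds another match on the opposite strand 161 bases before its start. The pair shares few reads, since 0.686% of the 31-base windows of Reg3b and 0.672% of those of Reg3g occur in a transcript of another gene. The ratio of Reg3b to Reg3g was 1.38, 2.16 and 1.36 in GC pools and 1.63, 1.24 and 1.16 in naive pools.

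Pigr, the receptor that carries IgA across the epithelium, was at 3.27, 10.6 and 4.49 TPM in GC pools and at 13.1, 8.90 and 8.02 TPM in naive pools. GC replicate 2 lay inside the naive range, and Pigr did not pass the test (log2 fold change -0.73, SE 0.39, limma adjusted p = 0.141), but did without GC replicate 2.

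Transcription factors of gut epithelium were low in all pools. Cdx2, which specifies intestinal fate, was at 0.358, 0.664 and 0.739 TPM in GC pools and at 1.97, 1.18 and 1.2 TPM in naive pools (log2 fold change -0.62, SE 0.19, limma adjusted p = 0.0261). Elf3, an epithelial ETS factor, was at 0.620, 0.872 and 0.502 TPM in GC pools and at 2.03, 1.72 and 1.06 TPM in naive pools (log2 fold change -0.63, SE 0.19, limma adjusted p = 0.0257). Neither gene overlapped between populations. Cdx1, the relative of Cdx2, did not reach the filter, with 0.400 to 0.711 TPM in GC pools and 0.945 to 1.17 TPM in naive pools. Cdx2 and Elf3 were under 1 TPM in all GC pools and reached the filter through their naive pools alone. Their direction and their lack of overlap were therefore fixed by the filter.

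**Figure D3:**
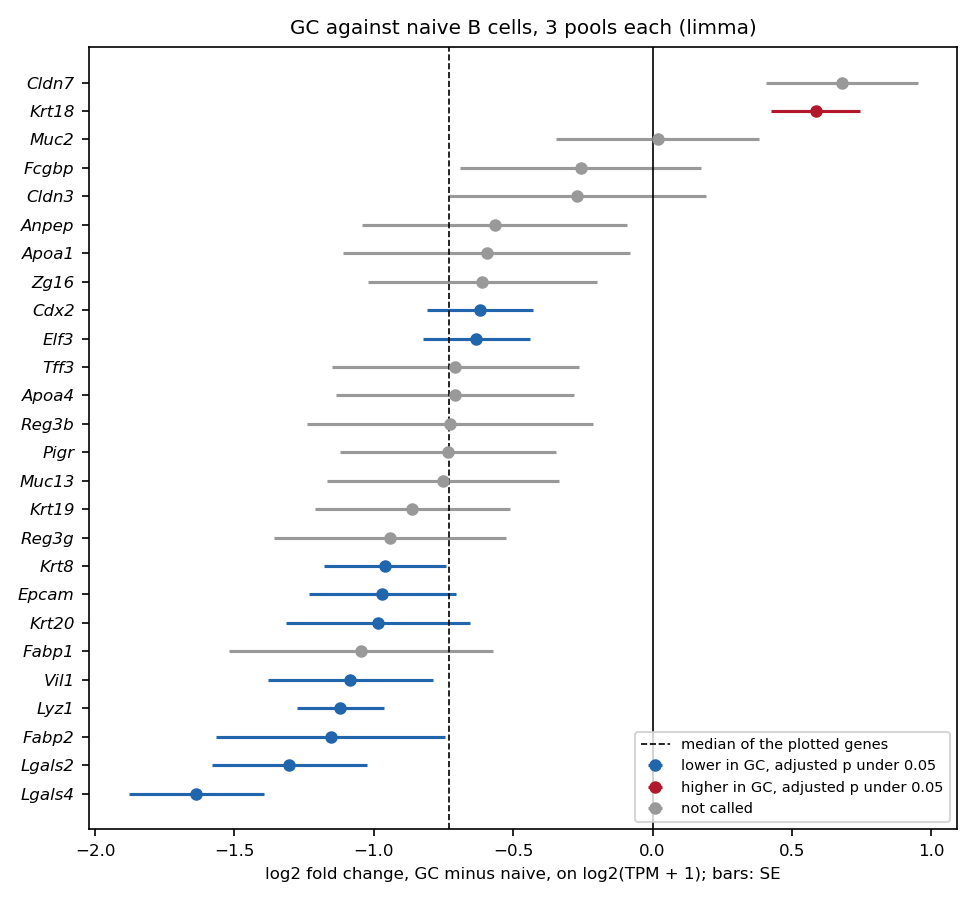
log2 fold change, GC minus naive, on log2(TPM + 1) with its SE (bars) for the 26 gut epithelial genes that reached the filter, ordered by size, with the color giving the limma call. The dashed line is their median of -0.73, Lgals4 is lowest at -1.64, and Krt18 at 0.59 is the called gene above 0.

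Whether the genes moved together was described within each population, since 3 pools do not allow a correlation and the populations form separate clusters. GC replicate 2 was the highest GC pool for 20 of the 26 tested genes (76.9%), beside 34.2% of all genes tested. Naive replicate 1 was the highest naive pool for 20 of 26 as well, beside 34.1%. GC replicate 2 was at least 2 times each of the other GC pools for 12 of 26 genes (46.2%), beside 1.53% of all genes tested and 1.62% of those with a mean of 1 to 100 TPM. These 12 were Cldn3, Vil1, Anpep, Fabp1, Fabp2, Apoa1, Apoa4, Muc13, Tff3, Fcgbp, Zg16 and Pigr, among them all 6 brush border and lipid genes. Naive replicate 1 was at least 1.5 times each of the other naive pools for 8 of 26 (30.8%), beside 3.17% of all genes tested. These 8 were Epcam, Cldn3, Anpep, Apoa1, Muc13, Reg3b, Reg3g and Cdx2, of which 4 (Cldn3, Anpep, Apoa1 and Muc13) were also among the former 12. The cutoff of 1.5 is below the 2 used for GC replicate 2, so the counts of 12 and 8 are not comparable. Among the 8, only Cldn3, Muc13, Reg3b and Reg3g reached 2 times.

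**Figure D4:**
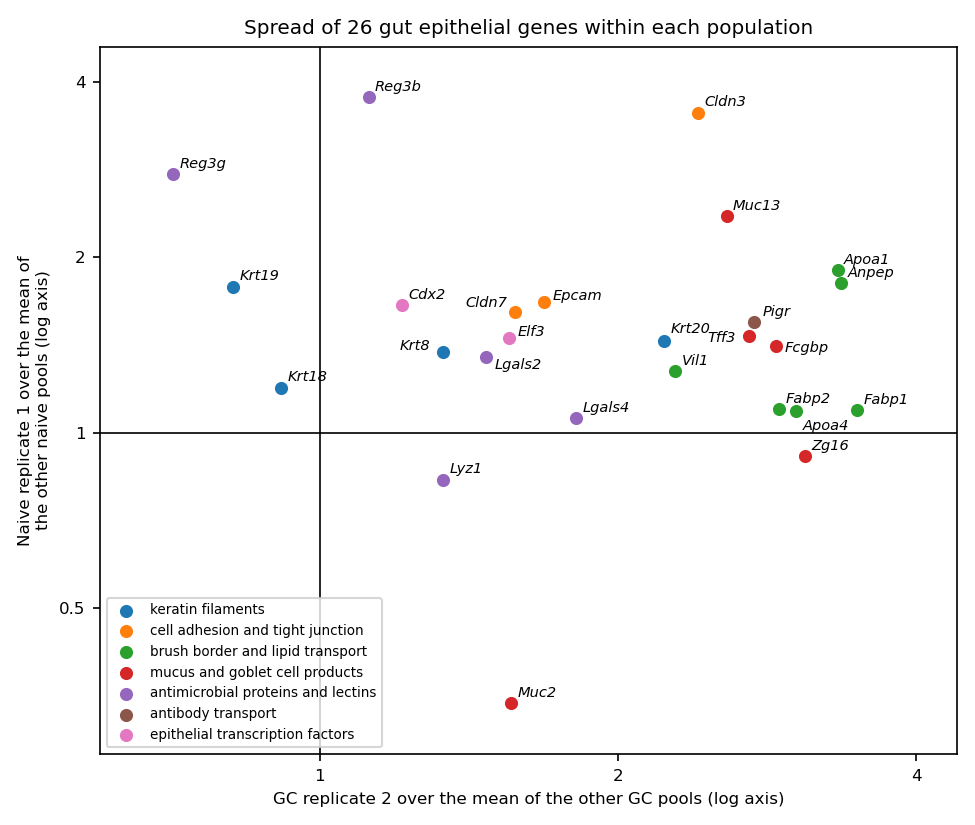
Level in GC replicate 2 over the mean of the other GC pools (horizontal, log axis) and in naive replicate 1 over the mean of the other naive pools (vertical, log axis) for the 26 tested genes, colored by role. Brush border genes lie to the right, Reg3b and Reg3g lie at the top near or left of 1, and Muc2 lies at the bottom.

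The spread between pools was wide for these genes. The median coefficient of variation was 52.2% among GC pools and 30.1% among naive pools for the 26 tested genes, beside 9.08% and 10.5% for all tested genes with a mean of 1 to 100 TPM. Levels of a tested member ranged by a median of 4.2 times from its lowest to its highest pool.

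As a share of the summed level of all 31 genes, members ranged less. The highest share over the lowest was 2.05 at the median, and it was smaller than the corresponding ratio of levels for 23 of the 26 genes, with Krt18, Cldn7 and Muc2 as the exceptions. The most abundant members enter the sum themselves, which holds their share more even. Shares stayed within 2 times for 12 genes (Krt8, Krt20, Epcam, Vil1, Anpep, Fabp1, Fabp2, Apoa4, Muc13, Tff3, Pigr and Elf3). Pigr kept the most even share, from 2.21% to 3.0% of the sum, while its level ranged 4.01 times, and Vil1 followed with 2.34% to 3.19% at a 3.75 times range of levels. Shares ranged between 2 and 3 times for 7 genes (Apoa1, Fcgbp, Zg16, Reg3b, Lgals2, Lgals4 and Cdx2).

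Shares ranged by 3 times or more for the other 7 genes, which deviated in different ways. Krt18 made up 0.858% to 2.14% of the sum in GC pools and 0.385% to 0.566% in naive pools, and Cldn7 made up 3.09% to 5.04% and 0.865% to 1.37%. These were the genes whose share separated the populations with GC pools on top. Muc2 (10.5 times) had its smallest share in naive replicate 1, while its level was lowest in GC replicate 1, at about 14.7 reads. Cldn3 (4.36 times) had its smallest share and its lowest level in naive replicate 3, at about 6.00 reads. Krt19 (3.38 times) and Reg3g (3.46 times) had their smallest share in GC replicate 2, and so did Lyz1 (3.62 times).

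**Figure D5:**
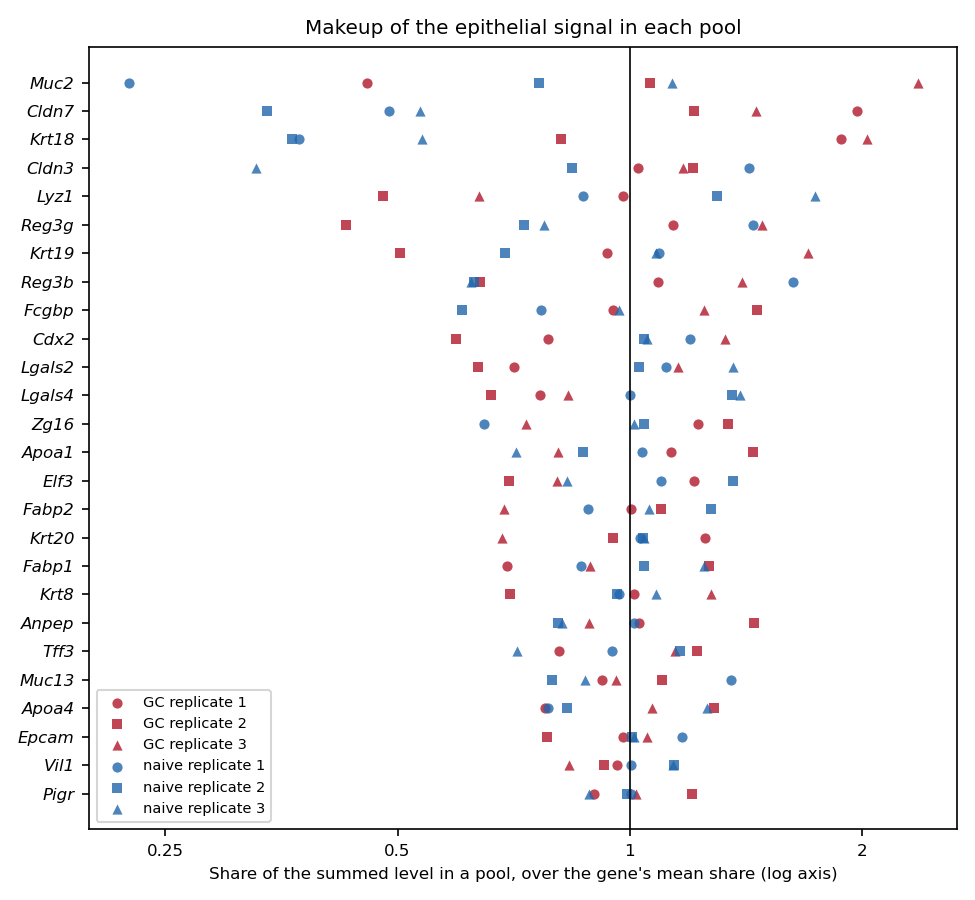
Share of each of the 26 tested genes in the summed level of a pool, divided by the gene's mean share over the 6 pools (log axis), with GC pools in red, naive pools in blue and genes ordered by the range of their share. Cldn7 has all red points above all blue ones and so does Krt18, while Pigr, Vil1 and Epcam lie close to 1 in every pool.

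A wider list of 64 further epithelial genes was examined by cell type. Of these, 26 reached the filter, 7 were lower in GC B cells (26.9%, against 30.1% of all genes tested) and 4 were higher (15.4%, against 35.5%), and 4 were listed at 0 in every pool (Retnlb, Il25, Neurod1 and Gp2). Of the called genes, Itln1 reached the filter through its naive pools alone, and Lct, Lgr5 and Trpm5 reached it through their GC pools alone. The direction and the lack of overlap of these 4 were thus fixed by the filter. The median log2 fold change was -0.53. Of the 11 called genes, 8 kept the call in all 6 fits that left out a pool, and Lct and Itln1 were among those that did not. The remaining untested genes did not exceed 5.67 TPM in any pool. None of the 7 enteroendocrine cell genes reached the filter. They summed to 3.29, 0.346 and 2.13 TPM in GC pools and to 3.98, 0.794 and 0.232 TPM in naive pools. Chga (2.15 TPM) and Chgb (1.47 TPM) made up most of the sum in naive replicate 1. GC replicate 2 was the highest GC pool for 21 of the 26 (80.8%, against 34.2% of all genes tested) and naive replicate 1 the highest naive pool for 22 (84.6%, against 34.1%).

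Among 13 tested genes of absorptive enterocytes, GC replicate 2 and naive replicate 1 were the highest pools of their populations for all 13. Rbp2, the cellular retinol binding protein of enterocytes, was the most abundant of them, at 10.9, 32.6 and 11.9 TPM in GC pools and 30.5, 22.4 and 24.9 TPM in naive pools, and did not pass the test (limma adjusted p = 0.21). Lct, the lactase of the brush border, was higher in GC B cells, at 1.60, 2.44 and 1.38 TPM against 0.986, 0.780 and 0.904 TPM (limma adjusted p = 0.0303), but did not pass after quantile normalization (limma adjusted p = 0.0725). All naive pools of Lct were under 1 TPM. Alpi, Sis, Apob, Apoc3, Slc5a1, Mttp, Mep1b, Slc15a1 and Prap1 did not pass the test. Their levels ran from 0.289 TPM (Prap1 in GC replicate 1) to 13.4 TPM (Prap1 in naive replicate 1).

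Junction and protease genes of epithelium were steadier between pools. Cdh17, the liver-intestine cadherin, was at 2.78, 3.43 and 3.07 TPM in GC pools and at 12.6, 10.4 and 10.2 TPM in naive pools (log2 fold change -1.56, SE 0.12, limma adjusted p = 6.33e-05). St14, the membrane protease matriptase, was at 8.94, 11.1 and 7.93 TPM in GC pools and at 30.6, 30.3 and 27.1 TPM in naive pools (limma adjusted p = 6.83e-05). Spint2, an inhibitor of such proteases, was also lower in GC B cells, at 33.4, 35.8 and 33.0 TPM against 52.7, 44.1 and 48.4 TPM (limma adjusted p = 0.00171). GC replicate 2 stood little above the other GC pools for these 3 genes, at 1.08 to 1.31 times their mean. Tjp3, a scaffold of tight junctions, lay between 12.1 and 14.3 TPM in all 6 pools (limma adjusted p = 0.974), and Cgn, the junction protein cingulin, between 0.976 and 1.86 TPM (limma adjusted p = 0.38).

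Genes of the rarer epithelial cells included 3 that were higher in GC B cells, of which Lgr5 and Trpm5 were under 1 TPM in all naive pools and entered the test through their GC pools alone. Slc12a2, an ion cotransporter of crypt cells, was at 14.6, 15.7 and 14.5 TPM in GC pools and at 2.43, 2.37 and 2.17 TPM in naive pools (limma adjusted p = 3.29e-06). Lgr5, the receptor that marks crypt stem cells, was at 1.43, 1.67 and 2.06 TPM against 0.243, 0.0821 and 0.232 TPM (limma adjusted p = 0.000584). Trpm5, the cation channel of tuft cells, was at 5.46, 5.69 and 5.66 TPM against 0.351, 0.356 and 0.865 TPM (limma adjusted p = 5.31e-05). GC replicate 2 did not stand out for these genes, at 0.958 to 1.08 times the mean of the other GC pools. The crypt genes besides Slc12a2 and Lgr5 did not reach the filter and did not share this direction. Prom1 and Smoc2 were listed at 0 in all GC pools, Ascl2 was listed at 0 in all naive pools, and Sox9 did not exceed 0.1115 TPM. Olfm4 lay between 0.0969 and 0.293 TPM in GC pools and between 0.081 and 1.38 TPM in naive pools. Among the other tuft cell markers, Il25 and Pou2f3 were listed at 0 in all GC pools, and Dclk1 did not exceed 0.123 TPM in any pool. Avil was at 1.96, 1.07 and 0.558 TPM in GC pools and at 0.473, 0.671 and 0.207 TPM in naive pools. None of these markers reached the filter.

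Paneth, goblet and M cell genes were low, apart from Anxa5. Anxa5, an annexin that many cell types express, was at 5.94, 6.98 and 6.88 TPM in GC pools and at 25.5, 26.3 and 26.5 TPM in naive pools (limma adjusted p = 5.67e-06), whereas Gp2, the receptor that marks M cells, was listed at 0 in every pool. Itln1, an intelectin of Paneth and goblet cells, was lower in GC B cells, at 0.909, 0.568 and 0.432 TPM against 1.07, 2.11 and 1.51 TPM (limma adjusted p = 0.0316), and entered the test through its naive pools alone. Spink4, a secreted peptide of goblet cells, was at 0, 0.637 and 1.92 TPM in GC pools and at 4.78, 4.41 and 2.76 TPM in naive pools (limma adjusted p = 0.0142), a call that was lost with a pseudocount of 0.01. Defa24, a Paneth cell defensin, and Clca3, a goblet cell product, did not pass the test (limma adjusted p = 0.131 and 0.837). Defa24 was at 4.85, 2.75 and 1.74 TPM in GC pools and at 3.59, 5.19 and 6.997 TPM in naive pools. Those levels are about 2.985 to 14.7 reads per pool. Defa24 and Itln1 were both highest in GC replicate 1 among GC pools and lowest in naive replicate 1 among naive pools. Most further epithelial genes tested were instead highest in GC replicate 2 and naive replicate 1. Lyz1 shared the low naive replicate 1 but was highest in GC replicate 2 among GC pools.

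Other cell types were read for comparison through their own marker lists. Of the 7 T cell markers 1 reached the filter, Lck, which was at 127 to 136 TPM in GC pools and 64.1 to 66.9 TPM in naive pools, and the other 6 did not exceed 1.83 TPM. The 8 markers of stromal and follicular dendritic cells summed to between 2.07 and 3.01 TPM in GC pools and between 1.30 and 2.13 TPM in naive pools. Of 5 endothelial markers Pecam1 alone reached the filter, at 21.9 to 24.2 TPM in GC pools and 121 to 132 TPM in naive pools, and Kdr was listed at 0 in every pool. The 3 red cell markers summed to 2.87, 1.94 and 11.0 TPM in GC pools and to 12.4, 6.54 and 0.839 TPM in naive pools, and so were lowest among GC pools in GC replicate 2 and highest among naive pools in naive replicate 1. The part of these cell types in the epithelial differences was not tested.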

How the data were processed

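RNA-Seq was available for 3 pools of GC B cells and 3 pools of naive B cells. The authors removed adapters with cutadapt 1.9, quantified reads with RSEM 1.2.25 against mouse transcripts (NCBIm38 v75) at a mean fragment length of 180, and deposited FPKM per gene and pool with 2 decimals. The submitters' processing notes also name CASAVA 1.8, FastQC and edgeR. FPKM corrects for length, so short and weakly expressed genes rest on few reads, and RSEM divides reads between near copies such as Lyz1 and Lyz2.

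FPKM were rescaled to TPM so that each pool summed to 1000000. Low FPKM values lay within 0.15 of a whole read for 70.9% to 75.0% of the values tried, so the depths are rough and counts were not modelled. Genes that reached 1 TPM in 3 or more pools were compared on log2(TPM + 1) with limma 3.58.1 (eBayes with a trend) in R 4.3.3, unpaired and two-sided, with Benjamini-Hochberg adjustment over 12785 genes and a threshold of 0.05. Fold changes on this scale understate those of low genes. The fit was tested on simulated data. Other steps used Python 3.11.15, numpy 2.4.6, pandas 2.3.3 and matplotlib 3.10.9. Symbols named 33398 of 39179 identifiers. Shared 31-base windows were counted in coding transcripts of an earlier build, NCBIM37. Named genes are all 31 members, the further epithelial genes that reached the filter, and Pax5, Fas, Cd3e, Csf1r and Lyz2, and other markers were named after their values were seen. Some genes that fall under these lists are not reported here. The members and gene lists were chosen with earlier results of these data known. Alternatives covered the pseudocount, the filter, the scaling, a replicate block and leaving out pools, and the fit without both GC replicate 2 and naive replicate 1 was chosen after seeing the data.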

Additional observations from a re-analysis of the deposited data

How the results depend on the processing

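The count of members that differed, 11 with all pools, ranged from 5 (without GC replicate 1) to 19 (without GC replicate 2) when 1 pool was left out, with 7 without GC replicate 3 and 7 without naive replicate 1, and the cause was not tested. A different pseudocount, filter or scaling kept that count and the count over the further epithelial genes within 1.5 times. Over all genes, 8392 differed (4540 higher and 3852 lower in GC B cells), with 4080 higher and 4450 lower after quantile normalization and 4189 higher and 4126 lower on FPKM as deposited, so the balance of directions over all genes depends on the scaling. The ratio of summed levels, naive over GC, was 1.56 to 2.58 when 1 pool was left out.

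Pools with the same number had correlations across genes of 0.083, 0.022 and 0.046 in their deviations from the population mean. For pools with different numbers the values ran from -0.075 to 0.030. Each GC pool had its highest value with the naive pool of its own number, but naive replicate 2 had its highest with GC replicate 3. These small values cannot decide whether mice were shared. The numbers are not taken as pairs, since no source used here gives them as such. With a replicate block 7960 genes differed, and Cdx2 (adjusted p = 0.0715), Lct (0.0657) and Itln1 (0.0699) no longer passed limma's test.

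Of 720 alternatives for single genes, 619 kept their sign and call, 53 lost the call, 27 gained one and 21 changed sign. The sign changes were all in genes that did not pass the test. Muc2 was -0.065 and -0.11 with pseudocounts of 0.1 and 0.01, -0.0041 on FPKM, -0.15 after quantile normalization, and -0.37 without both GC replicate 2 and naive replicate 1. When 1 pool was left out, the log2 fold change ranged from -0.67 to 0.18 for Cldn3, from -0.21 to 0.37 for Muc2, from -0.71 to 0.10 for Fcgbp, from -0.048 to 0.064 for Tjp3, from -0.41 to 0.14 for Apob, from -0.40 to 0.20 for Slc5a1 and from -0.48 to 0.18 for Clca3. Genes under 1 TPM rest on few reads, which limits what can be read from Cdh1, Cldn4, Tspan8, Agr2 and Cdx1.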

Other observations

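The pattern of GC replicate 2 was searched for among all coding genes after the values of the gut genes had been seen. Of 8955 genes whose mean was 5 TPM or more and a transcript of at least 500 bases, 23 (0.257%) were at least 2 times higher in GC replicate 2 than in each other GC pool. Of these, 9 were among the 31 gut genes (18 of which met the same limits), 3 were further epithelial genes (Rbp2 and Prap1 among them) and 11 were on neither list. Sprr2a2, a small proline-rich protein gene of epithelia, was the most abundant of the 11, at 18.5, 63.8 and 21.6 TPM in GC pools and 74.0, 80.8 and 62.9 TPM in naive pools, close to the values of Fabp2. Guca2b, which encodes the gut peptide uroguanylin, was at 4.41, 11.6 and 5.48 TPM in GC pools and 11.0, 5.75 and 4.03 TPM in naive pools. Myo15b, an unconventional myosin, was at 6.20, 12.6 and 5.87 TPM in GC pools and 12.0, 7.28 and 6.93 TPM in naive pools. Others of the 11 had a different shape. Entpd1, the ectonucleotidase CD39, was at 0.345, 1.14 and 0.307 TPM in GC pools and 33.6, 26 and 34.5 TPM in naive pools, and Alox5ap, of leukotriene synthesis, was listed at 0 in GC replicates 1 and 3, at 0.817 TPM in GC replicate 2 and between 43.4 and 141 TPM in naive pools. Genes of this kind stand at least 2 times higher in GC replicate 2 at low GC levels and high naive levels. The height of GC replicate 2 was fixed by the search for all 23 genes, so it shows no likeness between them. In the naive pools Sprr2a2 was like Fabp2, with every naive pool near GC replicate 2 and far above the other GC pools. Guca2b was not, since its naive replicate 3 lay below every GC pool. Mrm1, Tmem189, Tnfrsf18, Oasl1, Lgals3 and H2-Q2 made up the rest.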
